A study of Solanum tuberosum with 12 samples.

Results

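In potato (Solanum tuberosum) shoot tips recovering from cryopreservation, 66 of 39027 genes formed a set whose transcripts were most abundant when recovery continued in darkness, above the levels under both light regimes. The members were chosen on the group means of their CPM, the read count scaled to 1000000 reads of a library. A member had a dark mean of at least 3 CPM, which exceeded the mean under cool white light and the mean under LEDs by at least 75% each, a ratio called the required fold here. In addition its cool white mean had to lie above 0.25 times, and under 4 times, the mean in tips that were never frozen. Genes whose cool white level differed most from that of non-frozen tips were thus left out. The higher dark level is therefore how the set was made and is a description, and counts of calls between darkness and light are not evidence for it.

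The study sequenced 12 libraries in 4 groups of 3 biological replicates, each a pool of 10 shoot tips of the potato genotype Agrie Dzeltenie, cut from in vitro plants 3.5 weeks old. Dark tips were frozen in liquid nitrogen for 1 h in droplets with 10% DMSO (dimethyl sulfoxide, a cryoprotectant), rewarmed, left for 48 h without light on regeneration medium and then kept dark for another 16 h. LED tips, labelled RB, had the same history but spent the last 16 h under 90% red and 10% blue light, and cool white tips, labelled CW, spent them under cool white fluorescent tubes, both at 40 µmol per square metre per second. Non-cryopreserved tips were not frozen, were trimmed to 1 mm and received 16 h of cool white light at 40 µmol per square metre per second. The 3 frozen groups thus share the freezing, the cryoprotectant, the hormone-containing regeneration medium and the 48 h of darkness, and it is not stated if the non-frozen tips saw the same medium or dark period. Freezing and these steps cannot be told apart in any value set against the non-cryopreserved group. Dark and LED tips also differed from that group in the light of the last 16 h, so light and freezing cannot be told apart in those comparisons. In whole tips, fewer cells of a type and less RNA per cell cannot be told apart either.

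Plants sense the absence of light mainly through photoreceptors, among them the phytochromes, which respond to red light, and the cryptochromes and phototropins, which respond to blue light. In darkness, phytochrome-interacting transcription factors accumulate and promote elongation growth, and tissue cut off from photosynthesis activates genes that mobilise sugars, amino acids and cell components. In Arabidopsis thaliana such dark-inducible genes include enzymes of asparagine synthesis and of branched-chain amino acid breakdown. Which members of the potato set belong to these processes is not known here, because the files give genes only by identifiers that start with PGSC0003DMG and 0 of the 39027 identifiers matched the 32873 genes of the RefSeq table used for names. The gene lists prepared for dark response, autophagy, cell wall enzymes and cell type markers therefore had no matched member, the labelled tissue could not be checked against markers, and members are described by identifier and by pattern.

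Libraries held 6342324 to 10572258 counted reads. A member had a median of 229 reads summed over the dark libraries, 121.5 over the LED libraries, 91 over the cool white libraries and 85 over the non-cryopreserved libraries, and the smallest sum was 5 reads under LEDs, so low members carry large counting error. In the set, 33 members had a dark mean under 10 CPM, 24 members lay between 10 and 100 CPM and 9 members were above 100 CPM. Dark means ran from 3.02 to 1004.8 CPM with a median of 10.3 CPM. The median of the member means was 4.82 CPM under LEDs, 3.86 CPM under cool white light and 3.81 CPM in non-cryopreserved tips.

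**Figure D1:**
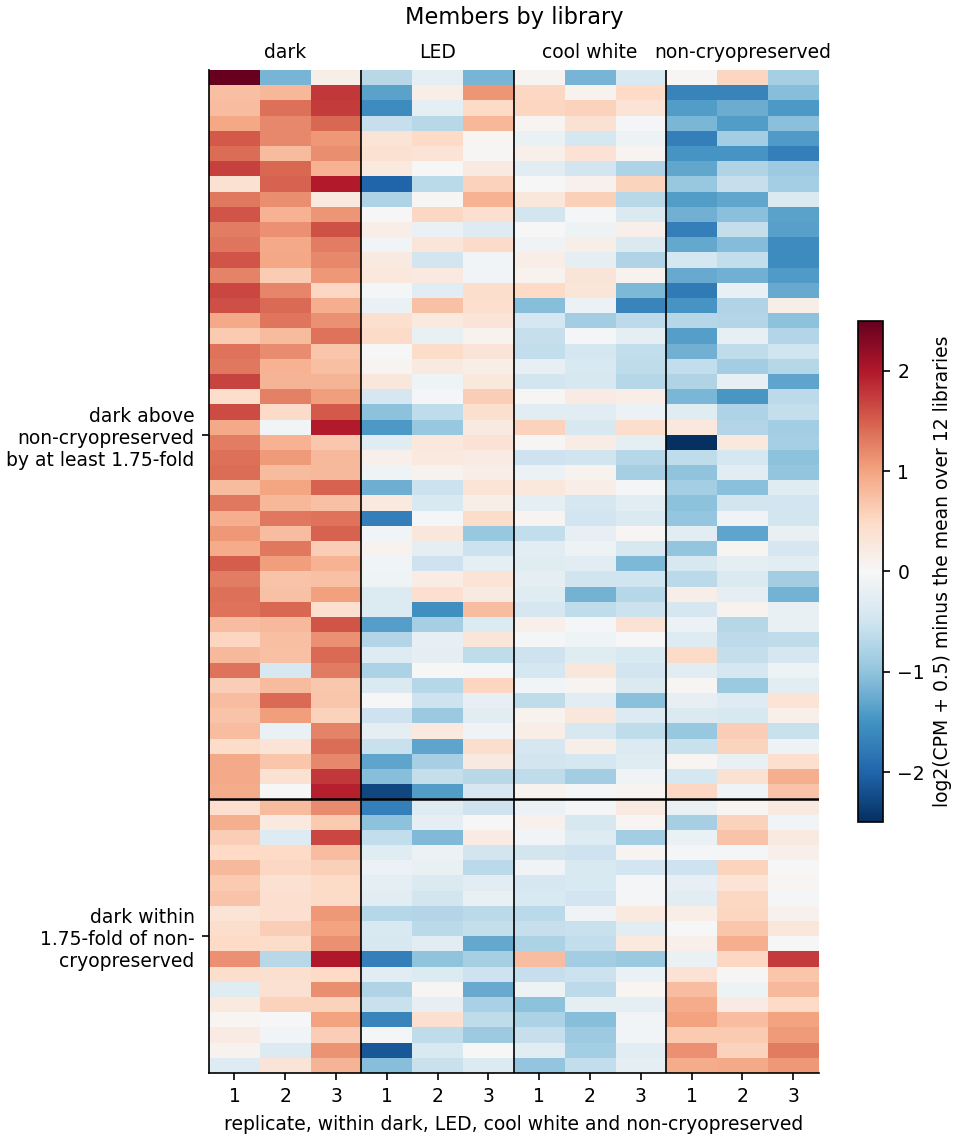
Rows are the 66 members and columns the 12 libraries; colour is log2(CPM + 0.5) minus the member's mean over all libraries. The upper block holds the 48 members whose dark mean was above the non-cryopreserved mean by the required fold, the lower block the 18 whose dark mean was within that fold of it, and the dark columns are the reddest in most rows of the upper block.

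The 66 members together took 3995.4, 3362.4 and 4440.5 CPM in dark replicates 1, 2 and 3. Their sum was 1735.8, 1943.3 and 2008.0 CPM in the LED libraries, 1915.2, 2051.2 and 1976.6 CPM in the cool white libraries, and 1197.7, 1233.9 and 1180.7 CPM in the non-cryopreserved libraries. No dark library overlapped a library of another group in this sum, and LED and cool white libraries overlapped each other. The sum was uneven, since 2 members held 41.7% and 4 members 64.7% of the dark total. Without the 2 most abundant members the sum was 2051.8, 2080.8 and 2745.1 CPM in darkness, 762.0 to 1244.8 CPM under LEDs, 1068.8 to 1161.2 CPM under cool white light and 903.1 to 932.0 CPM in non-cryopreserved tips.

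The most abundant member, PGSC0003DMG400036067, was at 1198.7, 789.5 and 1026.1 CPM in the dark libraries, against 595.0, 577.7 and 463.1 CPM under LEDs, 498.4, 588.8 and 480.5 CPM under cool white light and 162.9, 164.4 and 138.6 CPM in non-cryopreserved tips. Every dark library lay above every light library, and all 9 frozen libraries lay above the non-frozen ones. PGSC0003DMG400018892 was second, at 744.9, 492.1 and 669.3 CPM in darkness, 378.8, 376.6 and 300.2 CPM under LEDs, 338.0, 393.6 and 334.9 CPM under cool white light and 131.7, 137.5 and 118.3 CPM in non-cryopreserved tips. These genes ran in parallel from library to library: the ratio of PGSC0003DMG400036067 to PGSC0003DMG400018892 was 1.61, 1.60 and 1.53 in darkness, 1.53 to 1.57 under LEDs, 1.43 to 1.50 under cool white light and 1.17 to 1.24 in non-cryopreserved tips. Whether they are near-identical copies that share reads was not tested, since no sequence of either was at hand.

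Relative to non-cryopreserved tips, the log2 fold change in darkness was 2.72 for PGSC0003DMG400036067 (SE 0.16, adjusted p = 5.25e-08) and 2.32 for PGSC0003DMG400018892 (SE 0.15, adjusted p = 1.17e-07) by quasi-likelihood testing in edgeR, adjusted by Benjamini-Hochberg over the 19920 genes tested. Both also rose under LEDs, by 1.77 (SE 0.15, adjusted p = 1.5e-06) and 1.40 (SE 0.15, adjusted p = 5.73e-06) in the same edgeR test. Between LED and cool white light they differed by log2 values of 0.07 (SE 0.15) and -0.003 (SE 0.14), neither of which passed. All 9 members above 100 CPM showed the dark excess at modest size, with dark means 1.80 to 3.73 times the LED means and 1.78 to 2.45 times the cool white means. Of these 9, 7 passed the edgeR test as higher in darkness against the non-cryopreserved group, a call made for 27.7% of all tested genes, and 2 did not pass.

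**Figure D2:**
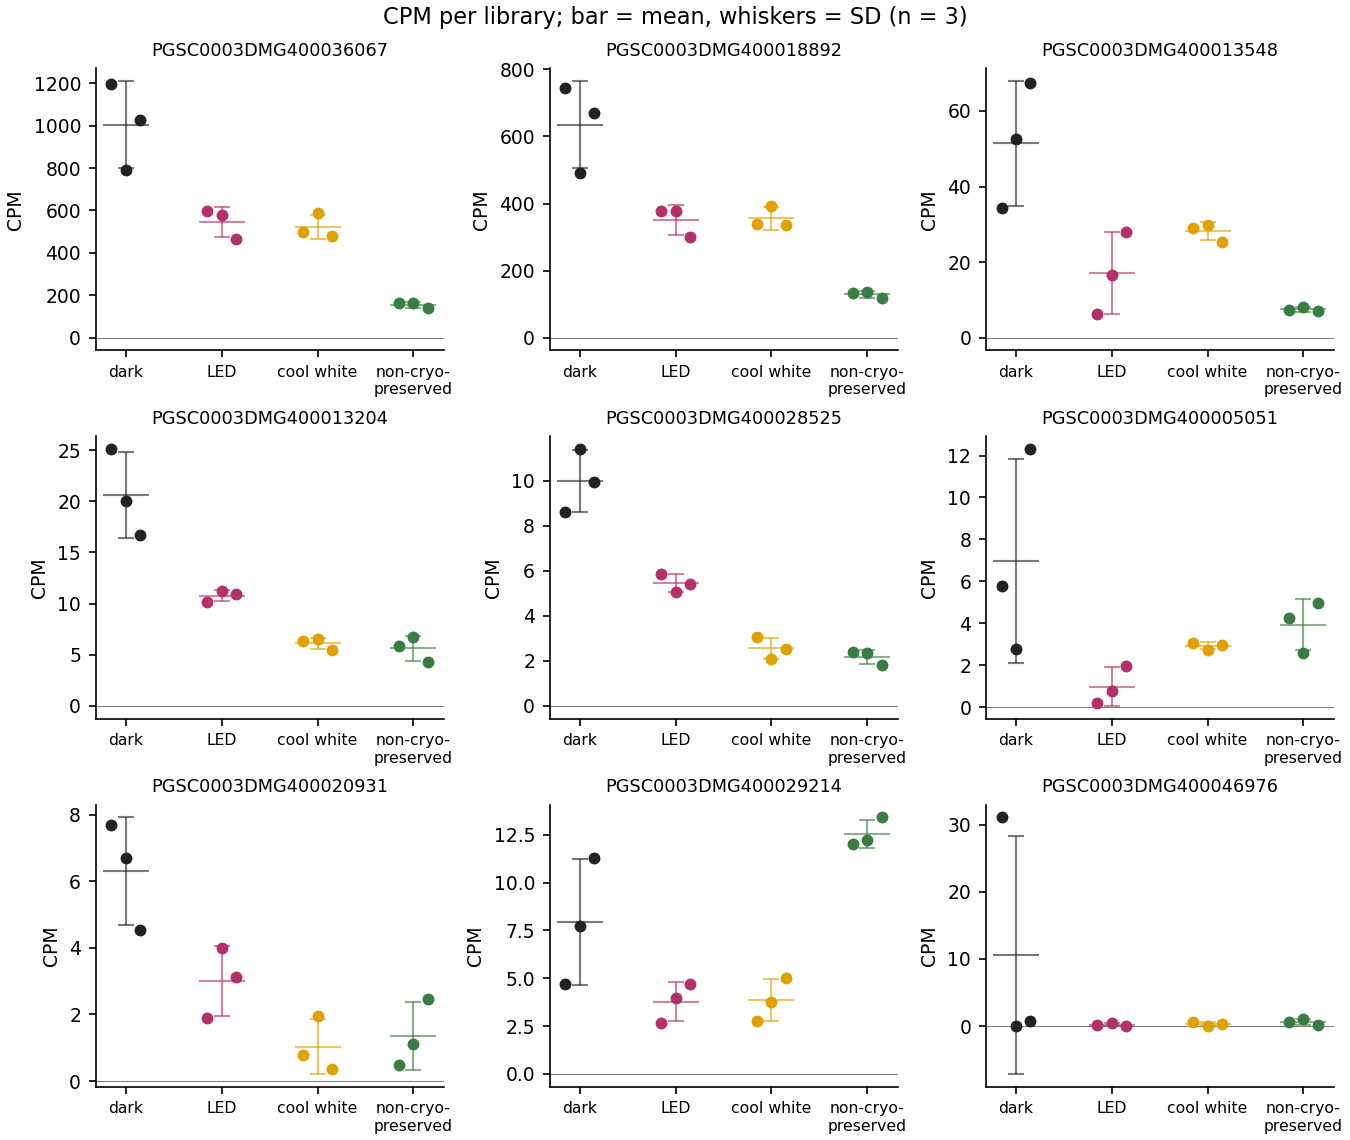
CPM in each library for 9 members, with groups on the x axis in the order dark, LED, cool white and non-cryopreserved; points are libraries, bars are means and whiskers are SD of 3. The dark points of PGSC0003DMG400036067, at 789.5 to 1198.7 CPM, clear all others, whereas the dark mean of PGSC0003DMG400046976 rests on 1 library.

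Over the set, the dark mean was 1.76 to 31.2 times the cool white mean, with a median of 2.30, and 1.77 to 49.1 times the LED mean, with a median of 2.25. At least 2-fold over both lights was reached by 32 members, at least 3-fold by 6 and at least 4-fold by 1. The other 34 members had a smaller fold under 2, and 16 members against cool white light and 19 against LEDs were within 1.1 times the required fold. Of the members, 65 had enough reads to be tested and 1 did not. By edgeR, 46 members were called higher in darkness than under cool white light, a call made for 4.55% of all tested genes, and 47 higher than under LEDs, a call made for 3.46% of all tested genes. Both calls were made for 42 members and for 1.43% of all tested genes, 9 members were called against 1 light and 14 against neither. These counts follow from how members were chosen, in the same libraries, and nothing is read from them.

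In 48 members all 3 dark libraries lay above all 6 light libraries, as in 3.56% of all tested genes, and in 39 they lay above all 9 other libraries, as in 2.18%. The first count follows from how members were chosen in these libraries and the second does so in part, and nothing is read from them. A further 242 genes were called higher in darkness than under both lights and are no member. Of these, 223 were under the required fold against at least 1 light, 14 passed on level and fold but lay outside the bounds on cool white against non-cryopreserved tips, and 5 were under 3 CPM in darkness. In all, 94 genes met the level and both folds, of which 20 were left out because the cool white mean was at least 4 times the non-cryopreserved mean and 8 because it was at most 0.25 times it.

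On the dark mean and on the ratio of dark to cool white, members at the edges of the rule differed little from genes just outside it. The lowest dark mean inside was 3.02 CPM and the highest outside, among genes that failed on this alone, was 2.98 CPM. The smallest ratio of dark to cool white was 1.762 inside and 1.749 outside, and that of dark to LED was 1.765 inside and 1.686 outside. The ratio of cool white to non-cryopreserved ran from 0.308 to 3.90 inside, with the nearest genes outside at 0.216 and 4.86.

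**Figure D3:**
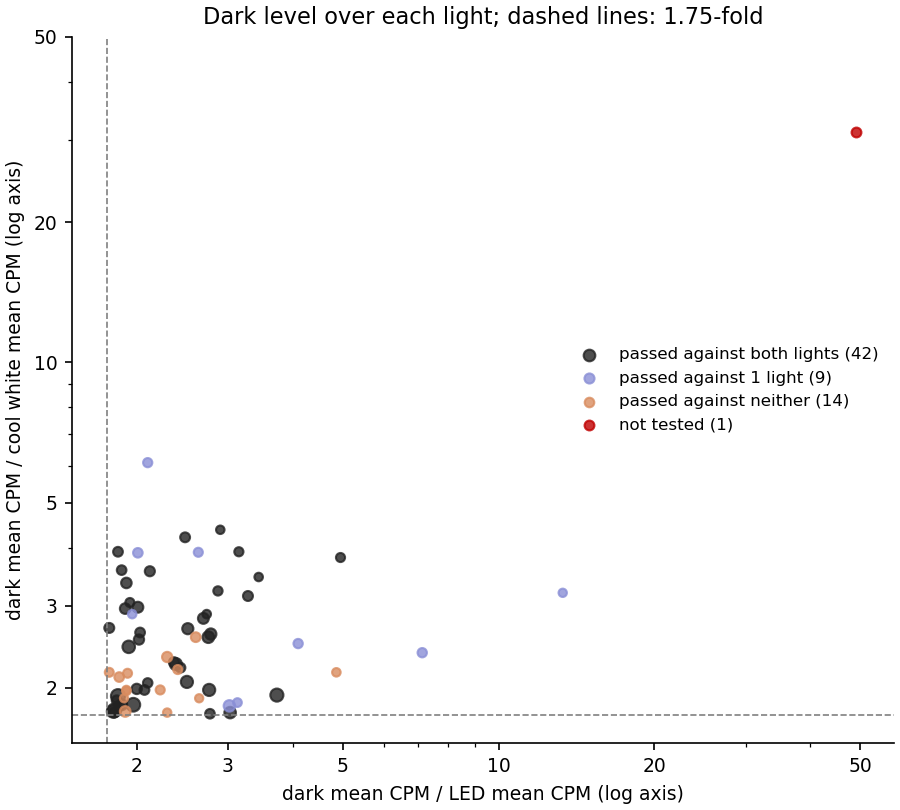
Each point is a member, with the ratio of its dark mean to its LED mean on x and to its cool white mean on y, both on log axes; point size grows with the dark mean and colour gives the edgeR calls. Most points crowd between the required fold, drawn as dashed lines, and 5 on both axes, and the lone point at 49.1 and 31.2 is the untested member.

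Among members whose mean log2 CPM reached 1 and that passed against cool white light with no overlap of libraries, PGSC0003DMG400020931 and PGSC0003DMG400031309 had the largest differences. PGSC0003DMG400020931 was at 7.68, 6.71 and 4.53 CPM in darkness, 1.89, 3.99 and 3.12 CPM under LEDs, 0.796, 1.95 and 0.358 CPM under cool white light and 0.473, 1.11 and 2.47 CPM in non-cryopreserved tips. Its dark libraries lay above all others, with a log2 difference of 2.69 (SE 0.52) from cool white light, or 3.52 without cool white replicate 2. Its log2 difference from LEDs was 1.17 (SE 0.45), which did not pass edgeR's test. PGSC0003DMG400031309 was at 2.96, 4.94 and 2.78 CPM in darkness, against 1.51, 0.920 and 1.25 CPM under LEDs, 0.796, 1.17 and 0.477 CPM under cool white light and 1.26, 1.11 and 2.08 CPM in non-cryopreserved tips. Against non-cryopreserved tips both were higher in darkness, by log2 fold changes of 2.21 (SE 0.50, adjusted p = 0.0019) and 1.28 (SE 0.37, adjusted p = 0.00971) in edgeR's test.

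Against LEDs, within the same limits on level and overlap, the largest differences were those of PGSC0003DMG400005051 and PGSC0003DMG400002953. PGSC0003DMG400005051 was at 5.79, 2.79 and 12.3 CPM in darkness, 0.189, 0.766 and 1.98 CPM under LEDs, 3.05, 2.73 and 2.98 CPM under cool white light and 4.26, 2.58 and 4.95 CPM in non-cryopreserved tips. Dark replicate 2 lay within the range of the cool white and non-cryopreserved libraries, and the LED libraries were lowest. Its log2 difference between darkness and LEDs was 2.87 (SE 0.61), or 4.07 without LED replicate 3 and 2.17 without dark replicate 3. PGSC0003DMG400002953 was at 4.98, 3.17 and 9.07 CPM in darkness, 0.851, 1.38 and 1.25 CPM under LEDs, 1.33, 1.04 and 2.15 CPM under cool white light and 1.58, 3.19 and 4.82 CPM in non-cryopreserved tips. For this gene dark and non-cryopreserved libraries overlapped, and edgeR gave a log2 difference of 0.84 (SE 0.42) between them with an adjusted p of 0.103.

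Set against tips that were never frozen, the members were split into 2 patterns by a cut at the required fold. Ratios of dark to non-cryopreserved reached 1.73 below the cut and began at 1.77 above it. In 48 members the dark mean was above the non-cryopreserved mean by at least the required fold, in 18 it was within that fold in either direction, and in 0 it was lower by more. By edgeR's test of darkness against non-cryopreserved tips 47 members were higher, where 27.7% of all tested genes were called higher, and 44 had dark libraries that all lay above the non-cryopreserved ones, against 29.2% of all tested genes. Lower in darkness were 0 members by edgeR, against 27.6% of all tested genes, with 1 member lower at an unadjusted p under 0.05 and 0 by DESeq2. The median log2 difference from non-cryopreserved tips over the 65 tested members was 1.67, against -0.01 over all tested genes. The rule asks for a high dark level relative to cool white light and bounds cool white against the non-cryopreserved level. This balance is thus in part built in, and the class of lower dark means was left little room.

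In the larger pattern, the 48 members had a median dark mean of 10.3 CPM, with medians of 4.57 CPM under LEDs, 3.76 CPM under cool white light and 3.15 CPM in non-cryopreserved tips. Their dark mean was 1.77 to 17.1 times the non-cryopreserved mean, with a median of 3.83. Under cool white light 30 of the 48 were within the required fold of the non-cryopreserved mean, 15 were above it by that fold or more and 3 were below it by as much. Under LEDs 21 were within that fold, 24 above and 3 below.

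Among members within these limits that passed against non-cryopreserved tips, the largest increases were in members that were also higher under both lights. PGSC0003DMG400019195 was at 17.2, 18.4 and 35.3 CPM in darkness, 3.69, 11.3 and 22.3 CPM under LEDs, 14.6, 10.8 and 14.4 CPM under cool white light and 2.84, 2.83 and 4.56 CPM in non-cryopreserved tips. PGSC0003DMG400013548 was at 34.4, 52.6 and 67.3 CPM in darkness, 6.34, 16.7 and 28.0 CPM under LEDs, 29.1, 29.9 and 25.4 CPM under cool white light and 7.25, 8.11 and 7.03 CPM in non-cryopreserved tips. The dark and LED libraries of PGSC0003DMG400019195 overlapped, and its LED replicate 1 lay within the range of the non-cryopreserved libraries. LED replicate 1 of PGSC0003DMG400013548 lay below all non-cryopreserved libraries. In edgeR's tests of darkness against light, PGSC0003DMG400019195 passed against neither light and PGSC0003DMG400013548 passed against LEDs only. In darkness these 2 members exceeded the non-cryopreserved level by log2 fold changes of 2.80 (SE 0.53, adjusted p = 0.000462) and 2.80 (SE 0.40, adjusted p = 4.69e-05) in edgeR's test. Under LEDs the values were 1.82 (SE 0.54, adjusted p = 0.0128) and 1.14 (SE 0.41, adjusted p = 0.0331) in the same edgeR test, and under cool white light 1.90 (SE 0.54) and 1.86 (SE 0.40).

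In the smaller pattern, with the dark level within the required fold of the non-cryopreserved level, the rule places both light means below the non-cryopreserved mean in every member. The 18 members had a median of 10.3 CPM in darkness, 5.07 CPM under LEDs, 4.88 CPM under cool white light and 10.4 CPM in non-cryopreserved tips. Their ratio of dark to non-cryopreserved ran from 0.631 to 1.73 with a median of 1.27, and 14 of the 18 did not pass edgeR's test between these groups while 4 were called higher in darkness. The LED mean was 0.0934 to 0.806 times the non-cryopreserved mean, with a median of 0.518, and the cool white mean 0.308 to 0.979 times it, with a median of 0.581. Against non-cryopreserved tips edgeR called 12 of the 18 lower under LEDs, where 23.3% of all tested genes were, and 7 lower under cool white light, where 21.5% were, and nothing is read from these counts since the direction was fixed by the choice of members. The 2 members with the largest decreases under cool white light against non-cryopreserved tips were both of this kind.

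PGSC0003DMG400029214 was at 4.72, 7.73 and 11.3 CPM in darkness, 2.65, 3.99 and 4.68 CPM under LEDs, 2.79, 3.78 and 5.01 CPM under cool white light and 12, 12.2 and 13.4 CPM in non-cryopreserved tips. Its dark libraries lay below the non-cryopreserved ones and overlapped with those of cool white light. PGSC0003DMG400024283 was at 4.45, 3.17 and 9.65 CPM in darkness, 0.568, 3.07 and 4.16 CPM under LEDs, 3.32, 2.08 and 3.34 CPM under cool white light and 9.78, 6.39 and 10.9 CPM in non-cryopreserved tips, with dark replicate 3 among the non-cryopreserved libraries and dark replicate 2 among the light ones. Under LEDs their log2 differences from non-cryopreserved tips were -1.78 (SE 0.30, adjusted p = 0.000251) and -1.87 (SE 0.51, adjusted p = 0.00796) in edgeR's test. In darkness they were -0.65 (SE 0.28, adjusted p = 0.0649) and -0.64 (SE 0.48, adjusted p = 0.275) in the same test, neither past the threshold. The call of PGSC0003DMG400024283 as lower under cool white light, at a log2 difference of -1.68 (SE 0.51), was lost without non-cryopreserved replicate 3 or without cool white replicate 2, at -1.52 and -1.49, with edgeR adjusted p of 0.0519 and 0.0575.

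**Figure D4:**
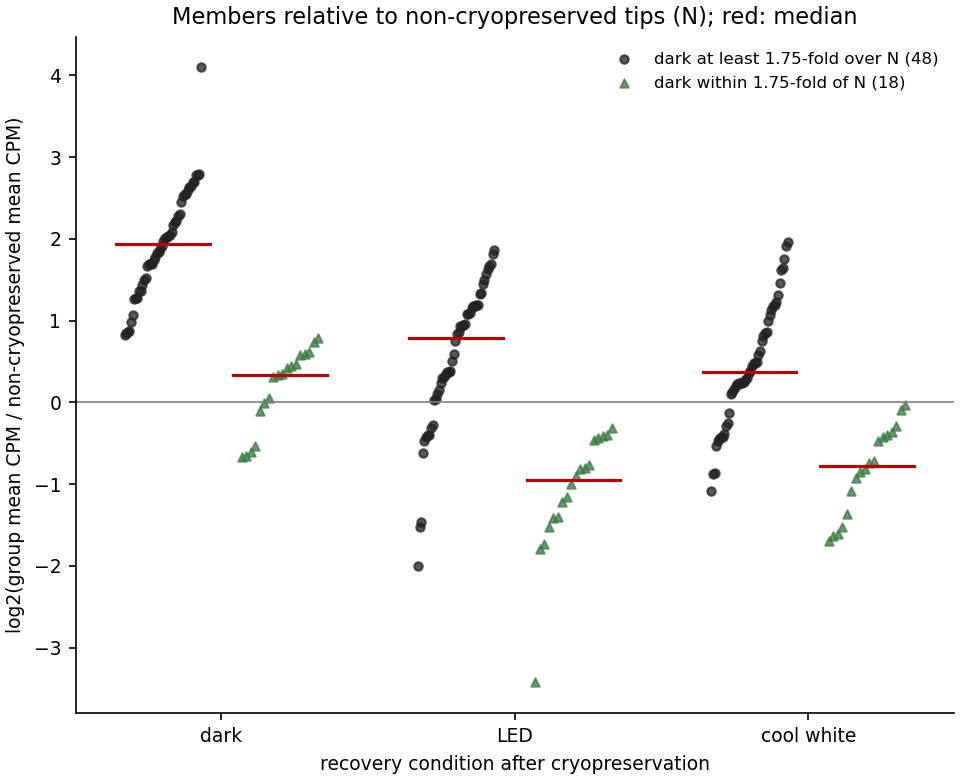
The y axis is the log2 ratio of a group's mean CPM to the non-cryopreserved mean (N), for darkness, LEDs and cool white light on x; circles are the 48 members above N in darkness, triangles the 18 within the required fold of N, and red lines are medians. The triangles lie below 0 under both lights because of how they were chosen, at medians of 0.518 times N under LEDs and 0.581 times N under cool white light.

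Counted over all members, edgeR called 19 higher and 14 lower in the comparison of LEDs with non-cryopreserved tips, where the calls covered 27.3% and 23.3% of all tested genes. Under cool white light 10 were called higher and 7 lower, where the calls covered 27.8% and 21.5% of all tested genes and the rule itself limits the difference to 4-fold. The 19 became 12 without LED replicate 3, the 14 became 9 without non-cryopreserved replicate 3, and the 7 became 11 without non-cryopreserved replicate 1 and 12 without cool white replicate 3.

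Between the lights, in 57 members the LED mean was within the required fold of the cool white mean, in 5 it was higher by at least that and in 4 lower by at least that, and the median log2 difference over the 65 tested members was 0.00. By edgeR 2 members were called higher under LEDs, where 0.377% of all tested genes were, and 0 lower, where 1.06% were. At an unadjusted p under 0.05, 11 members were higher and 4 lower under LEDs, and DESeq2 called 0 lower and 2 higher, with the adjusted p of 21 members not given by DESeq2. In 9 members the libraries stood in the order darkness over LEDs over cool white light with no overlap between neighbours, as in 0.291% of all tested genes, an order whose first step the rule itself favours.

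The 2 members called between lights showed this stepwise order. PGSC0003DMG400028525 was at 8.62, 11.4 and 9.95 CPM in darkness, 5.86, 5.06 and 5.41 CPM under LEDs, 3.05, 2.08 and 2.51 CPM under cool white light and 2.37, 2.33 and 1.82 CPM in non-cryopreserved tips. PGSC0003DMG400013204 was at 25.1, 20 and 16.7 CPM in darkness, 10.2, 11.2 and 10.9 CPM under LEDs, 6.37, 6.51 and 5.49 CPM under cool white light and 5.83, 6.76 and 4.30 CPM in non-cryopreserved tips. In both, cool white and non-cryopreserved libraries overlapped while LED libraries lay apart from either. The log2 difference of LEDs from cool white light was 1.11 (SE 0.22, adjusted p = 0.0279) for PGSC0003DMG400028525 and 0.83 (SE 0.19, adjusted p = 0.0477) for PGSC0003DMG400013204 in edgeR's test. Darkness against non-cryopreserved tips gave 2.22 (SE 0.22, adjusted p = 2.32e-06) and 1.89 (SE 0.19, adjusted p = 2.62e-06) in the same edgeR test. The calls between lights did not hold when a library was left out. Of the 2, 1 remained without cool white replicate 1 or LED replicate 3, and 0 without any 1 of the other 4 libraries of the lights. The log2 differences were then 0.99 to 1.25 for PGSC0003DMG400028525 and 0.75 to 0.87 for PGSC0003DMG400013204. Over all tested genes, 75 were called higher under LEDs with all libraries. Without LED replicate 3 it was 94, and without any other library of the lights 0 to 40.

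The dark libraries did not carry the members evenly. Dark replicate 3 was the highest dark library for 31 members, replicate 1 for 27 and replicate 2 for 8, that is 47.0%, 40.9% and 12.1%. Among the other 16205 tested genes with a dark mean of at least 3 CPM, replicate 3 was highest for 29.7%, replicate 1 for 28.9% and replicate 2 for 41.4%. Of the 18 members at the non-cryopreserved level, 13 had their highest dark value in replicate 3, and of the 48 above it 18 had it there and 23 in replicate 1. In 17 of the 31 members that were highest in dark replicate 3, LED replicate 3 was also the highest LED library. LED replicate 3 was highest in 45.5% of all members and in 32.2% of the other genes. Of the 27 members highest in dark replicate 1, 9 were highest in LED replicate 1. The part of these library differences in the dark excess was not tested.

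The highest dark library held between 34.8% and 97.7% of a member's summed dark CPM, with a median of 42.5%. It held over 50% in 11 members, in 10 of them dark replicate 3 and in 1 dark replicate 1, and the dark means of these 11 were at most 10.6 CPM. Of the 11, edgeR called 1 higher in darkness than under cool white light, 4 higher than under LEDs and 2 higher than in non-cryopreserved tips. Of the other 55 the same counts were 45, 43 and 45. These calls were made for 4.55%, 3.46% and 27.7% of all tested genes. The split was made on the spread of the dark libraries that the tests use, and 1 of the 11 was not tested, so nothing is read from these counts. The untested member, PGSC0003DMG400046976, was picked out after its values were seen and is the extreme case, with 231, 0 and 5 reads in the dark libraries. It had 2, 3 and 0 reads under LEDs, 5, 0 and 3 under cool white light and 4, 9 and 1 in non-cryopreserved tips, so that 1 dark library made its ratios of 49.1 to LEDs and 31.2 to cool white light.

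**Figure D5:**
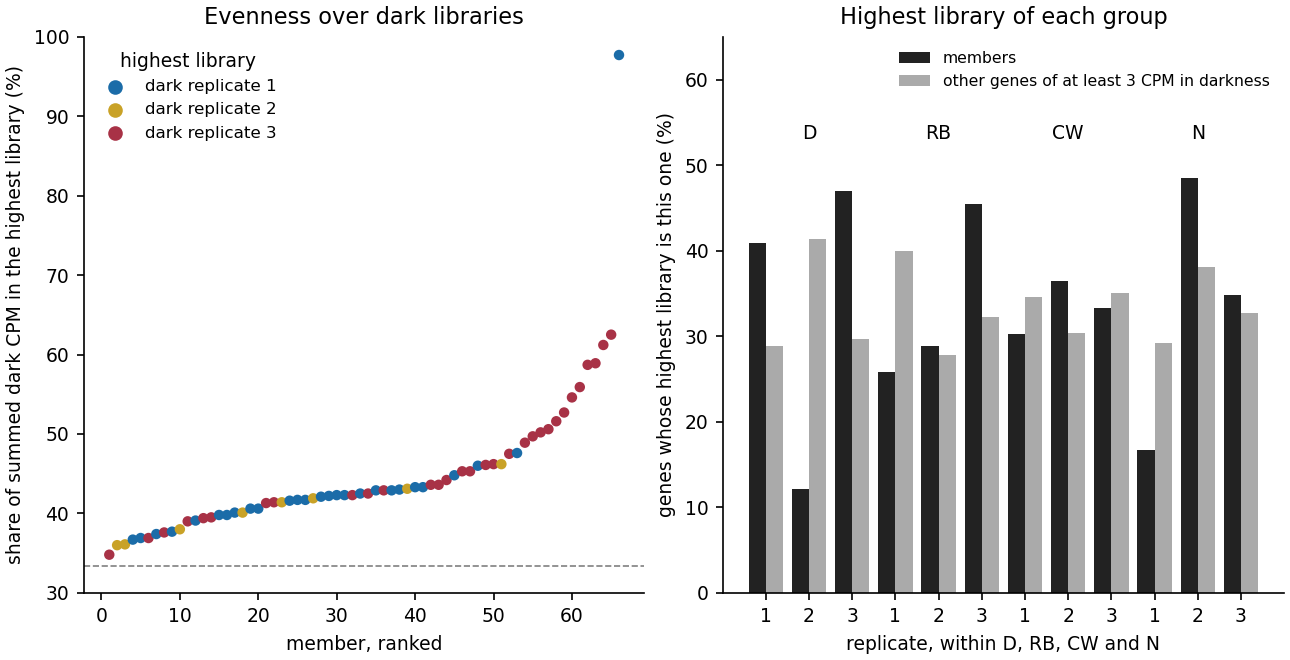
Left, the share of summed dark CPM held by the highest dark library for each member, ranked and coloured by that library, with a dashed line at equal shares of the 3 libraries; right, for each library of the dark (D), LED (RB), cool white (CW) and non-cryopreserved (N) groups, the percentage of members (black) and of other genes of at least 3 CPM in darkness (grey) whose highest value in the group is in that library. Dark replicate 2 is highest for 12.1% of members and 41.4% of the other genes.

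Spread between replicates was measured by the coefficient of variation, the SD over the mean. Its median over the members was 26.0% in darkness, 28.6% under LEDs, 19.3% under cool white light and 28.9% in non-cryopreserved tips. For the other 16205 genes of at least 3 CPM in darkness it was 10.4% in darkness, 12.2% under LEDs and 8.99% under cool white light, and 10.6% in non-cryopreserved tips, there over the 16197 with a read. The members were also less abundant, with medians of 10.3 CPM in darkness and 3.81 CPM in non-cryopreserved tips, against 22.4 CPM for the other genes in both groups, and a rule on unlogged means admits genes with 1 high library, so level and selection move with this spread and their part in it was not tested.

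Membership itself depended on single libraries. With each of the 12 libraries left out in turn, 22 of the 66 genes stayed members every time. Leaving out dark replicate 3 kept 43 of the 66, leaving out dark replicate 1 kept 50, leaving out LED replicate 1 kept 53, and leaving out dark replicate 2 kept 62 and raised the number of members to 87.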

How the data were processed

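The authors deposited unnormalized read counts, 1 table of genes for each library. TopHat2 2.0.8b, Bowtie 1.1.1 and featureCounts 1.5.0 are named in the submitters' processing notes. Genome build, annotation release, strand setting and handling of multi-mapping reads are not given in the sources used, which makes counts of overlapping or near-identical genes uncertain. Per the labels' protocols, libraries were stranded and made from mRNA.

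CPM values are counts divided by the library total, times 1000000, and are not TMM-scaled. The required fold between dark and light means was 1.75, also used for the classes against non-cryopreserved tips. Differential expression used R 4.3.3 and edgeR 4.0.16. Genes were kept by filterByExpr (minimum count 10, minimum total 15), which left 19920. TMM factors ran from 0.958 to 1.032. One model by group over all 12 libraries (glmQLFit, then glmQLFTest) left 8 residual degrees of freedom. Tests were two-sided, with Benjamini-Hochberg adjustment over all tested genes in a comparison and calls at an adjusted p under 0.05. Standard errors were computed back from the log2 fold change and the F statistic. The tests were checked on simulated data.

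With no gene names, the rule named, in every comparison but that of LEDs with non-cryopreserved tips, the 2 called members with the largest increases and the 2 with the largest decreases among those whose mean log2 CPM reached 1 and whose libraries did not overlap, and the 2 most abundant members, in all 12 identifiers. The members and lists were chosen with earlier results of these data known. Comparisons that share a group share its libraries. Whether replicates came from separate cultures is not given beyond the word biological. The p-values weigh a difference against the spread between libraries, estimated over all groups with information shared across genes. They may not extend to other cultures. Alternatives were other scalings, DESeq2 1.42.0, other filters, a replicate block and each library left out.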

Additional observations from a re-analysis of the deposited data

How the results depend on the processing

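The number of members was 84 with TMM-scaled CPM, 93 with CPM scaled by DESeq2 size factors, 32 with a fold of 2 and 142 with a fold of 1.5, and 54 to 87 with 1 library left out. Both rescaled sets held all 66 genes. Under other scalings, filters and tools and the replicate block, members called higher in darkness numbered 44 to 49 against cool white light. They numbered 46 to 52 against LEDs and 46 to 48 against non-cryopreserved tips. Over all tested genes the same calls numbered 472 to 1273, 477 to 799 and 5153 to 5564. With 1 library left out, the member counts were 35 to 42, 35 to 56 and 41 to 46. Those over all tested genes were then 426 to 709, 333 to 1068 and 4861 to 5192. The member counts against both lights follow from how members were chosen, and nothing is read from them. Against non-cryopreserved tips, members called as reduced in darkness numbered 1 with the replicate block. They numbered 0 to 1 with 1 library left out. Between lights, the replicate block gave 0 members higher and 1 lower under LEDs, where 21 and 114 of all tested genes were called. No filter on low counts gave 1 lower, where 326 of all tested genes were. Leaving out 1 library gave 0 to 1 higher and 0 to 1 lower, where 0 to 94 and 19 to 215 of all tested genes were. Against non-cryopreserved tips, leaving out 1 library gave 10 to 12 members higher and 6 to 12 lower under cool white light. Of all tested genes, 4731 to 5214 were then called higher and 3522 to 4064 lower. Under LEDs 12 to 20 members were higher and 9 to 16 lower, with 4565 to 5463 higher and 3928 to 4812 lower of all tested genes. The causes were not tested.

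The labels number the replicates and name no pairing across groups. Deviations of same-numbered libraries from group means correlated across genes at r = -0.281 to 0.228, above 0.1 in 4 of 18 pairs. Such values cannot settle if libraries were paired, so the block by replicate number was run as an alternative only. Of 216 values of the named members under alternatives, 202 kept their call, 14 kept their direction without passing and 0 reversed. The 14 were the calls of PGSC0003DMG400028525 and PGSC0003DMG400013204 between lights and that of PGSC0003DMG400024283 between cool white and non-cryopreserved tips. Apart from the most abundant members, these genes were named for calls made in the same libraries. Many of the values also compare darkness with light, as the rule does, so nothing is read from this tally. The smallest summed read count of a member was 5, under LEDs.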
